A study of Mus musculus with 3 samples.

Results

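Signals of 10 genes of the red cell program were examined in islet graft-bearing spleens of mice, of 34796 gene names on the array and 22851 with a detected probe. They are the transcription regulators Gata1, Zfpm1, Klf1, Nfe2, Tal1, Lmo2 and Gfi1b, the receptors Epor and Tfrc, and the ubiquitin ligase Trim58. The genes were chosen by name and with their measured values in view, since Trim58 moved against the other erythroid genes in these same arrays. The values below are therefore a description and not a test of that choice. All 10 genes were on the array, with 13 probes in all, and each of the 13 probes was well above background on every array.

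Spleen RNA was measured in C57BL/6J mice that had been made diabetic with the beta cell toxin streptozotocin and then received islets of the same strain. The mice were males per the methods, which state an age range for the whole study and none for a sample. All 3 groups received 25 islets in the spleen and 100 islets beneath the kidney capsule. The day 0 spleen was taken just after transplantation and the day 2 spleen at 2 days. The day 139 spleen was taken after nephrectomy on day 100, which took out the capsular graft. In the sample labels, the capsular graft stands among the characteristics of the day 139 sample alone, whereas the treatment protocol gives it for each sample. Time since transplantation, time since diabetes induction, age and loss of a kidney all differ between day 139 and the earlier samples and cannot be told apart. Blood glucose can differ too, since recipients were hyperglycemic at transplantation and, per the paper, mice with both grafts became normoglycemic. Day 0 and day 2 also differ in time since surgery. A spleen without islets was not analysed here.

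Each group had 1 array, and the number of mice behind it is not given in the sources used here. No replicate spread exists, so no p-value is given. The error printed with a log2 ratio is the scanner software's own error estimate for the spots of both arrays, and it covers neither labeling nor differences between mice. For bright probes it is a nearly constant share of the signal. It is thus 0.20 for the brightest probe of every gene but Trim58, and is not a spread measured among spots. The 3 arrays lay on 1 slide, and the share of probes well above background was 54.4% on day 0, 53.8% on day 2 and 50.4% on day 139. Signals were quantile normalized, so a ratio is relative to the other genes of the same spleen, and levels of different probes are not compared. In whole spleen, fewer cells of a type and less RNA per cell cannot be told apart.

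In mice the red pulp of the spleen makes red cells, and it does so most under anemia or stress. GATA1 binds DNA with a complex that includes TAL1, LMO2 and LDB1, takes FOG1, the product of Zfpm1, as its cofactor, and acts together with KLF1 on the genes of hemoglobin, heme and the red cell membrane. Erythropoietin, through its receptor and JAK2, keeps erythroid progenitors alive, and the transferrin receptor brings in the iron for heme. TRIM58 is made late in erythroid maturation, when it marks the motor protein dynein for degradation before the nucleus is expelled.

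Of the 10 genes, 9 had a lower signal on day 139 than on day 0, and Trim58 had a higher one. Relative to day 2, all 10 were lower on day 139, Trim58 by a log2 ratio of only -0.15 ± 0.23. The study's limits for a regulated gene are a ratio of at least 1.5 or at most 0.66, joined with a Z-score of at least 2 or at most -2. The paper does not say how its Z-score was computed. Here a gene's log2 ratio was scaled by the SD among 1000 probes of like mean signal, and the result may differ from the study's own Z-score. It sets a gene against other genes and not against other mice. The median log2 ratio of the 10 genes was -0.81 for day 139 over day 0, against -0.00 over all 22851 genes, and -0.79 for day 139 over day 2, against -0.03. For day 2 over day 0 it was 0.06, against 0.02.

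For day 139 over day 0, the ratio was at most 0.66 for 7 genes (Gata1, Klf1, Tal1, Zfpm1, Gfi1b, Epor and Tfrc), a limit that 13.7% of all genes met. It was at least 1.5 for Trim58, a limit that 13.6% met. The counts in this paragraph take the brightest probe of each gene. By these probes no gene of the 10 passed the Z-score limit as well. Of all genes, 2.34% did so downward and 3.05% upward. A dimmer Tfrc probe, given below, passed both limits downward. For day 139 over day 2, the ratio limit was met downward by the same genes without Tfrc, 6 in all, against 13.5% of all genes. Both dimmer Tfrc probes met it, and the dimmest also passed the Z-score limit. None of the 10 met the ratio limit upward, against 12.8%. Gata1 also passed the Z-score limit, against 1.77% of all genes downward and 2.98% upward. For day 2 over day 0, Trim58 passed both limits upward, against 9.94% of all genes by ratio and 2.11% by ratio and Z-score. None of the 10 met the lower limit, against 9.87% and 2.76%. The day 139 comparisons share the day 139 array, and both comparisons with day 0 share the day 0 array. Since the genes were chosen on these contrasts, nothing is read from these counts.

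**Figure D1:**
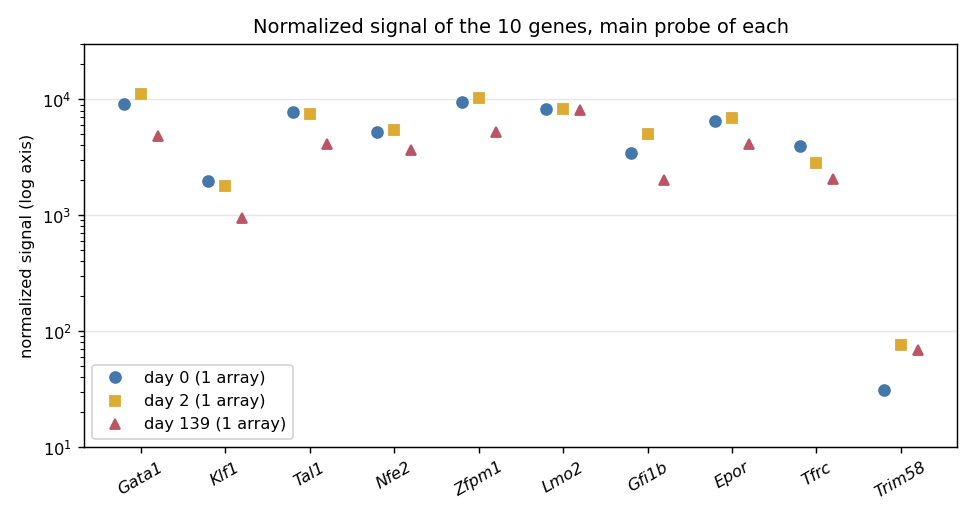
Normalized signal (log axis) of the brightest probe of each of the 10 genes on the day 0, day 2 and day 139 arrays, 1 array per group and no error bars. Day 139 is the lowest point for 9 genes, whereas for Trim58 day 0 is the lowest, with 31.0 against 76.3 on day 2 and 68.6 on day 139. Heights of different genes come from different probes and are not comparable.

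Gata1, the master regulator of erythroid genes, had normalized signals of 9122 on day 0, 11180 on day 2 and 4832 on day 139. Its probe lies on chromosome X of mm9 (7536392 to 7536451, minus strand). Day 2 was the highest and day 139 the lowest of the 3 spleens. The log2 ratio was 0.29 ± 0.20 for day 2 over day 0, -0.92 ± 0.20 for day 139 over day 0 and -1.21 ± 0.20 for day 139 over day 2, where the Z-score was -2.09. Day 139 thus had 0.53 of the day 0 signal and 0.432 of the day 2 signal.

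Zfpm1, the gene of the GATA1 cofactor FOG1, had signals of 9505, 10247 and 5242 on days 0, 2 and 139. The order of the 3 spleens was that of Gata1, although day 2 and day 0 differed by less than the error (0.11 ± 0.20). The log2 ratio of day 139 was -0.86 over day 0 and -0.97 over day 2. A second Zfpm1 probe, which overlaps the first on chromosome 8 (124861087 to 124861146 against 124861092 to 124861151 in mm9), gave -0.92 and -1.04. The overlapping probes read nearly the same bases and are no independent measurement.

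Klf1, whose product activates adult globin and heme genes, had signals of 1989, 1789 and 955 on days 0, 2 and 139 from a probe on chromosome 8 (87428881 to 87428940). Day 0 and day 2 differed by less than the error (-0.15 ± 0.20). Day 139 lay at a log2 ratio of -1.06 ± 0.20 to day 0, the lowest of the 10 genes by their brightest probes, with a Z-score of -1.93, and at -0.91 to day 2.

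Nfe2, the gene of the p45 subunit of NF-E2, which serves globin genes and platelet formation, had signals of 5260, 5437 and 3675 on days 0, 2 and 139. Its day 139 signal was below both earlier spleens, at log2 ratios of -0.52 ± 0.20 and -0.57 ± 0.20, which are past the error but short of the ratio limit. The ratio was 0.699 to day 0 and 0.676 to day 2.

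Tal1, which with LMO2 joins GATA1 in 1 DNA-binding complex, had signals of 7760, 7422 and 4102 on days 0, 2 and 139. The earlier spleens were alike within the error, and day 139 was lower, at a log2 ratio of -0.92 ± 0.20 to day 0 and -0.86 ± 0.20 to day 2. Lmo2, the bridging protein of the same complex, had signals of 8255, 8269 and 8077. No pair of its 3 spleens was further apart than a log2 ratio of 0.03, less than the error of 0.20. Lmo2 is also made by endothelial cells and by other blood cells.

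Gfi1b, a repressor that recruits the histone demethylase KDM1A in erythroid cells and megakaryocytes, had signals of 3408, 5028 and 2011 on days 0, 2 and 139. Its day 2 signal was above day 0 by a log2 ratio of 0.56 ± 0.20, or 1.48-fold, just short of the ratio limit. Day 139 was the lowest, at -0.76 ± 0.20 to day 0 and -1.32 ± 0.20 to day 2, the lowest of the 10 genes by their brightest probes, with a Z-score of -1.91.

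Epor, the erythropoietin receptor, had signals of 6515, 6847 and 4136 on days 0, 2 and 139 from a probe on chromosome 9 (21763422 to 21763481, minus strand). Day 2 did not differ from day 0 beyond the error (0.07 ± 0.20). Day 139 was lower than both, at log2 ratios of -0.66 ± 0.20 and -0.73 ± 0.20, or 0.635 and 0.604 of the earlier signals.

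Tfrc, the transferrin receptor, was read by 3 probes on chromosome 16. The brightest (32632255 to 32632314) was printed as 10 spots and had normalized signals of 3961, 2824 and 2072 on days 0, 2 and 139. The order day 0, day 2, day 139 was kept without overlap among the spots, whose background-subtracted signals before normalization were 4098 ± 61.8 on day 0 (SD, 9 spots), 3002 ± 109 on day 2 (9 spots) and 1874 ± 35.7 on day 139 (8 spots). Spots within an array show the precision of the print and the scan only. The log2 ratio of this probe was -0.49 ± 0.20 for day 2 over day 0, -0.94 ± 0.20 for day 139 over day 0 and -0.45 ± 0.20 for day 139 over day 2.

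The other Tfrc probes differed between day 0 and day 2 by less than the error. The probe at 32620470 to 32620529 had signals of 1284, 1280 and 530. Its log2 ratio of day 139 over day 0 was -1.28, with a Z-score of -2.34. Its log2 ratio of day 139 over day 2 was -1.27, with a Z-score of -1.997. The third probe had signals of 195, 217 and 82.8. Its log2 ratio was 0.15 for day 2 over day 0 and -1.23 for day 139 over day 0. For day 139 over day 2 it was -1.39, with a Z-score of -2.05. The third probe is shown because its 60 bases cover 217 bases of the genome (chr16:32624877-32625093, mm9). They thus read across an exon boundary of spliced RNA.
Tfrc exon-spanning probe: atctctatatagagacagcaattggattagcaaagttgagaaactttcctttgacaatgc
All 3 probes placed Tfrc lowest on day 139, and they differ in whether day 2 was already lower than day 0.

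**Figure D2:**
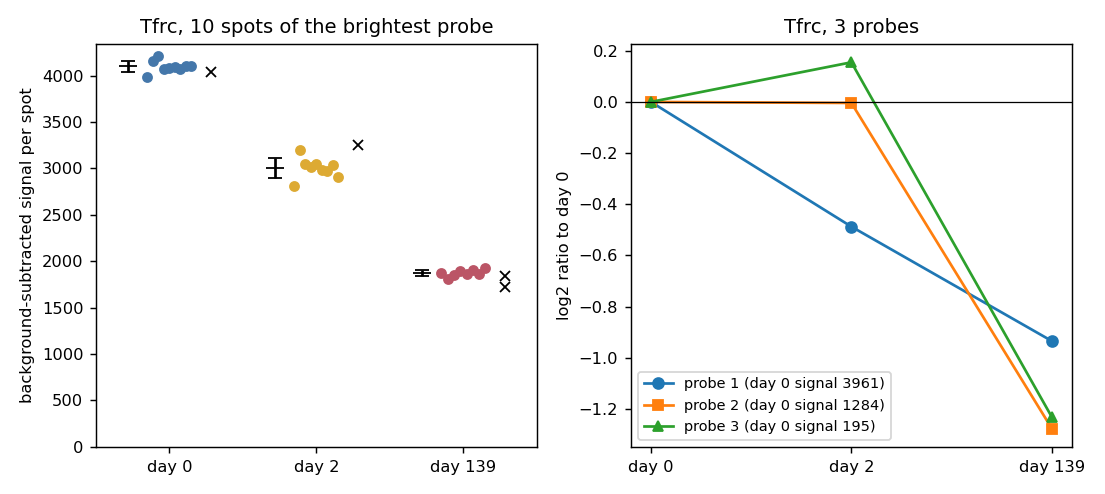
Left, background-subtracted signal of each spot of the brightest Tfrc probe by array, with the mean and SD over the spots used beside them and crosses for spots left out as outliers; right, log2 ratio to day 0 of the 3 Tfrc probes. The spots fall from 4098 to 3002 and 1874 on average, and only this probe is lower on day 2 than on day 0 by more than the error (-0.49 ± 0.20).

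Trim58, the ubiquitin ligase that targets dynein, had normalized signals of 31.0 on day 0, 76.3 on day 2 and 68.6 on day 139. Its probe lies on chromosome 11 of mm9 (58465809 to 58465868). Day 0 was the low spleen, and day 2 and day 139 differed by less than the error. The log2 ratio was 1.30 ± 0.26 for day 2 over day 0, or 2.46-fold, with a Z-score of 2.07, and 1.15 ± 0.27 for day 139 over day 0, or 2.21-fold, with a Z-score of 1.33. Of all genes, 97.5% had a lower ratio than Trim58 on day 2 over day 0, and 94.6% had a lower one on day 139 over day 0.

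The Trim58 probe was close to the background. Before subtraction its spot had a mean of 105 on day 0, 153 on day 2 and 135 on day 139, over local backgrounds of 59, 63 and 61. After subtraction by the software, the signals before normalization were 33.2 ± 4.79, 79.8 ± 8.66 and 61.4 ± 7.24 (software error, 1 spot). With a normexp background correction and an offset of 50 in their place, the fold of Trim58 over day 0 was 1.43 on day 2 and 1.39 on day 139, which is under the ratio limit. That correction adds 50 to every signal, which draws the ratios of dim probes toward 1. Without the added 50, a setting chosen after seeing the data, the fold was 1.93 on day 2 and 1.84 on day 139, above the limit.

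**Figure D3:**
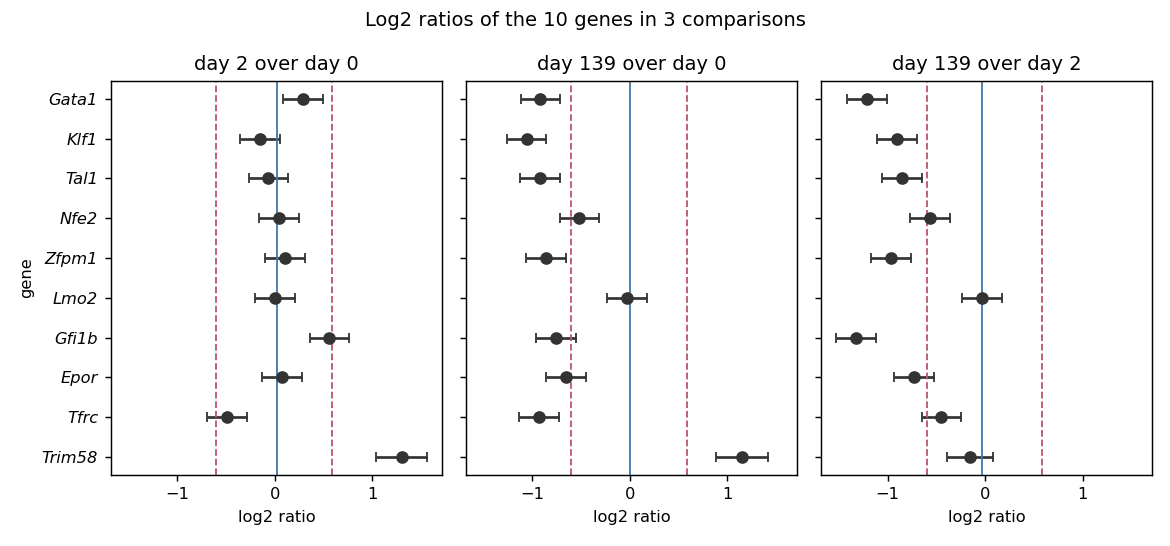
Log2 ratio of each of the 10 genes in the 3 comparisons, with the scanner software's error as bars; the blue line is the median of all 22851 genes and the dashed lines are the ratio limits of 1.5 and 0.66. Trim58 lies right of the upper limit for day 2 and day 139 over day 0 (1.30 and 1.15), and 7 genes lie left of the lower limit for day 139 over day 0.

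The other 9 genes had a median log2 ratio of 0.05 for day 2 over day 0 and -0.86 for day 139 over day 0. Trim58 thus lay 1.25 above them on day 2 and 2.00 above them on day 139. These gaps were 0.49 and 1.33 with normexp and its offset, and 0.92 and 1.74 with normexp without it. A ratio of at least 1.5 at both times over day 0 was seen in 609 of 19808 genes well above background on all 3 arrays, or 3.07%. By the distance between log2 signals centred over the 3 spleens, the genes most like Trim58 of 8510 ranked were Mms22l, a replication-fork repair gene, Klhl13, NAP071933-1, Tmem44 and 2010110P09Rik, at distances of 0.04 to 0.07. Over 3 spleens such likeness is common, and 500 genes lay within 0.5. Of the other 9 genes, Lmo2 lay at a distance of 1.01 but was not ranked, since its range over the spleens was under the 0.5 required, and Nfe2, the nearest of the ranked 8, lay at 1.23 and rank 4592. Within the gene lists described below, the nearest were Fcer1a, a chain of the IgE receptor (0.41), Kdm1a, the histone demethylase that partners GFI1B (0.42), and Emr1, the macrophage surface marker F4/80 (0.43).

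**Figure D4:**
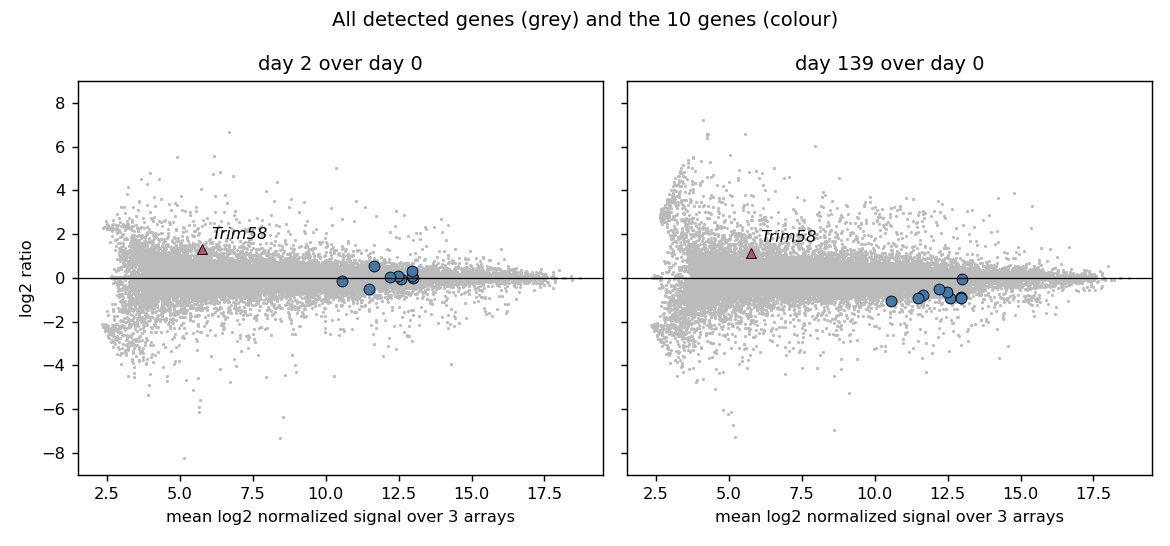
Log2 ratio against mean log2 normalized signal over the 3 arrays for 22851 genes (grey) and the 10 genes (blue circles, Trim58 as a red triangle), for day 2 and day 139 over day 0. Trim58 sits at the dim end, where grey points spread widely (1.30 and 1.15), while 8 of the other 9 genes lie between -1.06 and -0.52 on day 139 and Lmo2 lies at -0.03.

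Promoters are shown for Klf1, Epor and Trim58, because they set a gene that was higher on day 139 than on day 0 beside genes that were lower. RefSeq promoters of GRCm38.p6 matched 8 of the 10 genes, with 10 promoters in all, since Tal1 and Tfrc have 2 each. Over the 250 bases upstream of each start, both strands were searched for GATAA, the core of GATA sites, and for CCNCNCCC, a pattern that KLF sites share. The sequences run 5′ to 3′ on the strand of the gene, with capitals for matches to either pattern. Epor holds overlapping CCNCNCCC matches, and no GATAA match touches one in the windows shown.
Klf1, chr8:84901732-84901981, plus strand: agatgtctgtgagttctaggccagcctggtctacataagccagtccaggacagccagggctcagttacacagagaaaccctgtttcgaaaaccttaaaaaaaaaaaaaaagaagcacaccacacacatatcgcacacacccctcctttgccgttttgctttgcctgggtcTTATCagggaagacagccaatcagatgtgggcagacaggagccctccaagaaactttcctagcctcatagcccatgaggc
Epor, chr9:21963577-21963826, minus strand: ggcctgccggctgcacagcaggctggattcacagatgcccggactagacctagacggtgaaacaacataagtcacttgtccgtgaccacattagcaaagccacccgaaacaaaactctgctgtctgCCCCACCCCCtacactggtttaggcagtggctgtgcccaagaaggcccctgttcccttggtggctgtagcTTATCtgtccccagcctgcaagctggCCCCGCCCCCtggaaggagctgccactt
Trim58, chr11:58640215-58640464, plus strand: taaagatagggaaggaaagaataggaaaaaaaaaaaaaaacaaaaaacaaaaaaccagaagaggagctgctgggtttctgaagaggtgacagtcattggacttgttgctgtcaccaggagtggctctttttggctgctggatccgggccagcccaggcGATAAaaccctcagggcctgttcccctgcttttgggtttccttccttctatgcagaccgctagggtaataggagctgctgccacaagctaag
GATAA was found in 5 of the 10 promoters and in 22.6% of 32851 RefSeq promoters of the same length. In Trim58 it starts 92 bases before the start of the gene, in Klf1 80 and in Epor 54. CCNCNCCC was found in 7 of the 10, against 45.9% of all. Epor has 4 such matches, whereas Klf1 and Trim58 have none. CANNTG, the E-box that TAL1 partners bind, was in 5 of the 10 against 66.2%, and TGANTCA, a core of NF-E2 sites, was in 0 against 6.75%. A match is a description of letters and not a binding site, and the GATAA match was present both in genes that were lower on day 139 and in Trim58.

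Of 26 other regulators of the erythroid program on the array, all well above background, 2 met the lower ratio limit and 3 the upper for day 139 over day 0, against 13.7% and 13.6% of all genes, with a median log2 ratio of -0.13. The lowest were Gata2, the GATA factor of early progenitors, with signals of 387, 236 and 187 and a log2 ratio of -1.05, and Erg, an ETS factor, at -0.64. The highest were Tcea3, a transcription elongation factor gene, with signals of 18.0, 67.2 and 67.5 and a log2 ratio of 1.91, and Fli1, an ETS factor of megakaryocytes, at 0.64. Tcea3, like Trim58, had its low spleen on day 0 and nearly equal signals on day 2 and day 139. Both probes were dim, and the day 0 signal of Tcea3 was near the lowest one well above background on that array (12.9).

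Among 19 detected genes of erythropoietin receptor signaling, 6 met the lower ratio limit for day 139 over day 0, against 13.7% of all genes, and none the upper, with a median log2 ratio of -0.19. The lowest were Fam132b, the array's name for the gene of the iron hormone erythroferrone, with signals of 229, 37.0 and 26.4, and Osm, the cytokine oncostatin M, with 151, 38.8 and 38.1. In both, day 0 was the high spleen and day 2 was already low, an order unlike that of Epor. Log2 ratios of day 139 over day 0 were -3.12 and -1.99. The highest were Spry1 (0.53) and Ptpn6 (0.51), both of which encode inhibitors of receptor signaling. Podxl, among the 6 at the lower limit, was not well above background on day 2 or day 139. For day 2 over day 0, 7 of the list met the lower limit, against 9.87% of all genes, and none the upper. For day 139 over day 2, 1 met the lower limit and 1 the upper, against 13.5% and 12.8%.

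Of 17 genes of iron uptake and delivery, 15 were lower and 2 higher on day 139 than on day 0, and 2 met the lower ratio limit, against 13.7% of all genes. Those were Steap3, the reductase that acts with the transferrin receptor in the endosome, with signals of 1034, 1343 and 541 and a log2 ratio of -0.94, and Abcb10, a mitochondrial transporter of heme synthesis, with 5172, 4890 and 2943 and -0.81. The highest were the iron exporter Slc40a1 (0.17) and Aco1 (0.00). The median was -0.26.

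Of 27 detected genes of the red cell membrane, hemoglobin and heme synthesis, 25 were lower on day 139 than on day 0 and 14 met the lower ratio limit, against 13.7% of all genes, with a median of -0.61. The lowest named were Cpox, a heme synthesis enzyme, with signals of 9328, 7243 and 3987 (-1.23), and Ank1, the ankyrin that anchors the membrane skeleton, with 1267, 1261 and 566 (-1.16). Hba-a1 and Hba-a2, the alpha-globin genes, had log2 ratios of 0.00 for day 139 over day 0, and Hba-a2 had -0.10 for day 2 over day 0. They are among the brightest genes of the arrays, where quantile normalization gives equal ranks equal values. The probes were not saturated.

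Genes of late erythroid maturation and of dynein, the group nearest to the known role of TRIM58, had medians near 0 for day 139 over day 0. For day 2 over day 0, 13 of 19 detected late maturation genes were higher and 6 lower. Their median was 0.29, against 0.02 over all genes, and 3 met the upper ratio limit, against 9.94% of all genes. On day 139, 11 were higher and 8 lower than on day 0, with a median of 0.03. The upper limit was met by 2 and the lower by 3, against 13.6% and 13.7% of all genes. The highest were Xpo7, a nuclear exportin gene, with signals of 218, 322 and 383 (0.81), and Rac2 (0.62). Among genes well above background on all arrays, the lowest were Diap3, a formin gene, with 1121, 1525 and 640 (-0.81), and Tspan33 (-0.61). Alox15, not well above background on day 139, was lower still, with signals of 70.3, 312 and 18.2. Its log2 ratio to day 0 was 2.15 on day 2 and -1.95 on day 139. Of 17 dynein and dynactin subunits, 8 were higher and 9 lower, with a median of -0.01, and 1 met the lower ratio limit, against 13.7% of all genes. That was Dync1i1, an intermediate chain, with signals of 131, 52.1 and 84.0 (-0.65), followed by Dynll1 (-0.34), while Dynlrb1 (0.37) and Dynlt3 (0.31) were the highest.

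**Figure D5:**
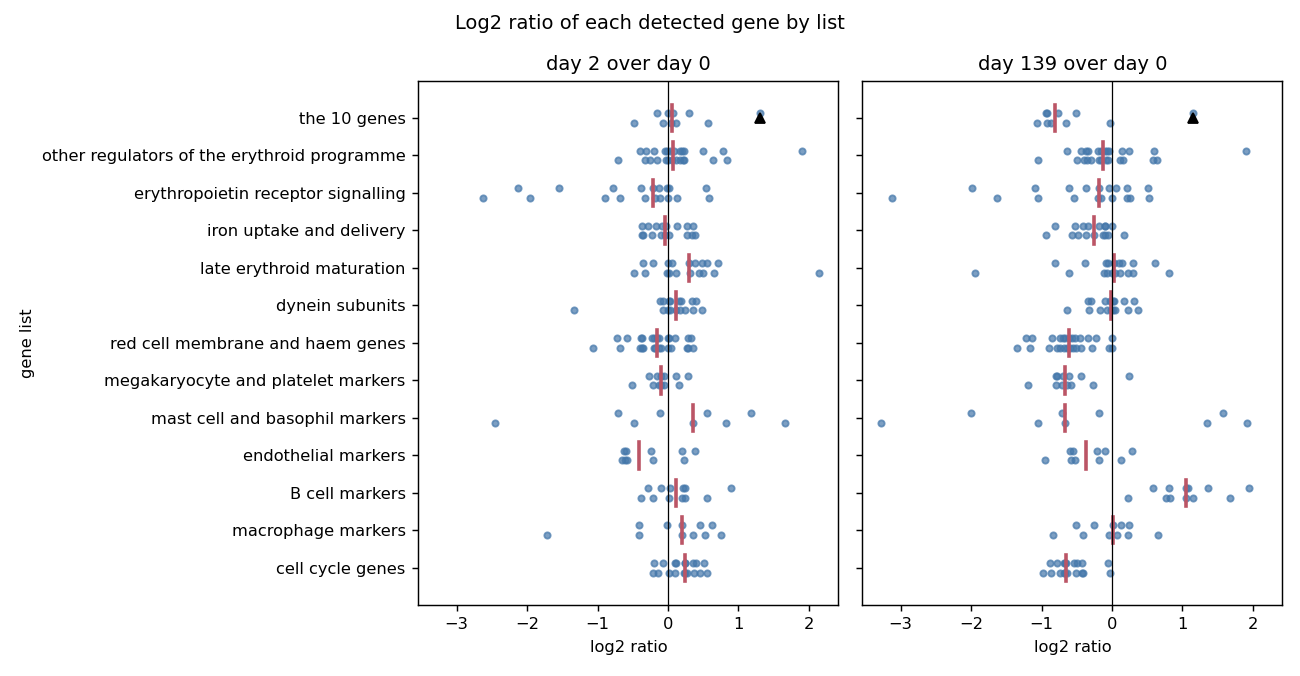
Log2 ratio of each detected gene by list for day 2 and day 139 over day 0, with the list's median as a red bar and Trim58 as a black triangle in the first row. On day 139 the 10 genes (median -0.81), the red cell membrane and haem genes (-0.61) and the cell cycle genes (-0.65) lie left of 0. So do the platelet markers (-0.66), the mast cell and basophil markers (-0.67) and the endothelial markers (-0.37). The B cell markers (1.05) lie right.

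Markers of other spleen cells moved over the same arrays, and their part in the values of the 10 genes was not tested. Gata1, Zfpm1, Tal1, Nfe2 and Gfi1b also act in megakaryocytes, and 11 of 12 megakaryocyte and platelet markers were lower on day 139 than on day 0, with a summed signal of 32373, 35398 and 21347 on days 0, 2 and 139. All 12 B cell markers were higher on day 139 than on day 0, and their summed signal was 61545, 63222 and 117278. Cell cycle genes, all 19 of which were lower on day 139 than on day 0, summed to 146197, 158956 and 88952. The lower ratio limit was met by 11 of them, against 13.7% of all genes. Tyms (-0.03) and Aurkb (-0.05) differed by less than the error, and Aurkb was not well above background on day 0 or day 139. Of 11 macrophage markers, 6 were higher and 5 lower, and the sum stayed between 109904 and 116382. Single markers moved more for day 2 over day 0. Emr1 (1.69-fold) and C1qa (1.54-fold) met the upper ratio limit and Spic (0.305) the lower, against 9.94% and 9.87% of all genes. Of 10 endothelial markers, 8 were lower on day 139 than on day 0, with sums of 34810, 33610 and 27633. Of 9 detected mast cell and basophil markers, 6 were lower, with sums of 5547, 2402 and 1864, most of whose fall was Hdc. Without Hdc the sums were 1792, 1717 and 1475. In the same list 5 markers met the lower ratio limit for day 139 over day 0, against 13.7% of all genes. Another 3, Mcpt8, Fcer1a and Prss34, met the upper limit (3.79-fold, 2.97-fold and 2.56-fold), against 13.6%. Their day 0 signals were only 27.1, 18.3 and 60.1, where the lowest signal well above background was 12.9. Ms4a2 of the same list was not well above background on any array. The 10 genes themselves summed to 55806, 59119 and 35169. No marker of B cells or macrophages was at background on any array.

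Quantile normalization fixes the distribution of all signals, so the level of the whole array was also set by the spike-in controls. On that scale the median log2 ratio of all genes was 0.38 for day 139 over day 0 and 0.41 for day 139 over day 2, and -0.03 for day 2 over day 0. Trim58 lay 1.11 above the median of all genes for day 139 over day 0, against 1.15 with quantile normalization and 0.48 with normexp and its offset, and the other 9 genes lay below it for day 139 over both earlier spleens. The spike-in scaling is a constant per array that shifts every gene alike. Set against 0 on that scale instead of the median, Lmo2 turned to 0.35 and 0.32 for day 139 over day 0 and day 2. Trim58 for day 139 over day 2 turned to 0.29. Gata1 (-0.50), Klf1 (-0.65), Tal1 (-0.52), Tfrc (-0.52), Zfpm1 (-0.46), Gfi1b (-0.35) and Epor (-0.25) stayed below 0 for day 139 over day 0. Nfe2 (-0.13) was within the software's error of 0.20. For day 139 over day 2, Nfe2 (-0.16) and Tfrc (-0.02) were within that error.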

How the data were processed

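Spleen RNA was hybridized to one-color SurePrint G3 Mouse 8x60K arrays, 1 per group. Per array, the authors deposited scanner output, an intensity per spot on a linear scale with the background subtracted and spatial trends corrected, and a table of processed intensity values per probe. The file header names Feature Extraction 10.7.1.1, the submitters' processing notes 9.5.1.1. The labels and the methods name different RNA and labeling kits. Each array held 62976 spots, of which 59305 were for genes, and the number of arrays limits the precision.

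Outlier-flagged spots (119 to 152 per array) and controls were left out, spots of a probe averaged, and 55679 probes quantile normalized over the 3 arrays as in the methods, with signals under 1 set to 1 before log2. Detection required a probe to be well above background on at least 1 array (32108 probes), and a gene took its brightest detected probe. No p-value was computed. Probe positions are those of the array design on mm9.

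The genes, lists and alternatives were chosen with earlier results of these data known. Named are the 10 genes with every probe, the 2 highest and 2 lowest ratios of day 139 over day 0 in each list that is no marker list (among genes well above background on all arrays), and the 5 genes of the array and 3 of the lists nearest to Trim58 among genes with a log2 range of at least 0.5. Alternatives were a normexp background correction (limma 3.58.1, R 4.3.3) with an offset of 50 and, chosen after seeing the data, without one, 75th percentile scaling, scaling to 8 spike-in controls, the deposited table, detection on all arrays, no detection filter, the median over a gene's probes and a ratio limit of 2 or 0.5. Calculations used Python 3.11.15, numpy 2.4.6, pandas 2.3.3 and matplotlib 3.10.9.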

Additional observations from a re-analysis of the deposited data

How the results depend on the processing

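With 1 array per group no spread between mice was measured, and dim probes such as that of Trim58 lie little above the background. The deposited table, detection on all 3 arrays and no detection filter gave the same counts over the 10 genes. With the median over a gene's probes, Tfrc joined the genes at the lower limit for day 139 over day 2. Their number rose from 6 to 7, against 13.8% of all genes. Tfrc was then at -0.00 for day 2 over day 0, -1.23 for day 139 over day 0 and -1.27 for day 139 over day 2. With normexp and an offset of 50, which compresses dim ratios by construction, 0 of the 10 genes met the upper limit for day 2 over day 0 (3.45% of all genes did) and 0 for day 139 over day 0 (6.78%), since Trim58 fell to log2 ratios of 0.52 and 0.47. Without the offset, a setting added after seeing the data, Trim58 met it in both (0.95 and 0.88). Of all genes, 7.17% did so for day 2 over day 0 and 11.1% for day 139 over day 0. With 75th percentile scaling, 2 met it for day 2 over day 0, Trim58 and Gfi1b (1.53-fold), against 9.64% of all genes, 7 met the lower limit for day 139 over day 2, as Nfe2 joined, against 14.4%, and Tal1 for day 2 over day 0 turned to 0.03. With spike-in scaling, which shifts all genes, 1 gene met the lower limit for day 139 over day 0 (median -0.40), against 6.88% of all genes, and 3 for day 139 over day 2 (median -0.41), against 5.32%, and 20 of 30 single log2 ratios moved by more than the software's error. With a ratio limit of 2 or 0.5, 1 gene was lower for day 139 over day 0, against 6.46% of all genes, and 2 for day 139 over day 2, against 5.65%. No paired analysis was possible because each group has 1 array.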

Other observations

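Genes beside Trim58 on chromosome 11 were also looked at, chosen by position alone. Of 10 named genes with a probe within 100000 bases of the Trim58 probe in mm9, 8 were not well above background on any array. The other two were olfactory receptor genes. Olfr319 had signals of 101, 93.4 and 103 on days 0, 2 and 139, and Olfr324 had 34.2, 32.6 and 20.5, so neither had its low spleen on day 0 as Trim58 did.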
